A study of Mus musculus with 7 samples.

Results

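Tetraspanins are membrane proteins that cross the membrane 4 times and gather integrins, proteases and other partners into clusters at the cell surface. The gene family was followed here on expression arrays of mouse embryonic fibroblasts with and without tenascin-C (gene Tnc), an adhesion-modulating glycoprotein of the extracellular matrix. Members were the genes named Tspan with a number, together with Cd9, Cd37, Cd53, Cd63, Cd81, Cd82, Cd151, Upk1a, Upk1b, Rom1 and Prph2. By this rule 30 genes were found among the 19937 genes with a single symbol on the array, each with 1 probe set, the group of probes that together report a gene. A filter on low signal left 29 of the 30 among 16801 tested genes, and Tspan8 was not tested.

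Each array held RNA of 1 clone of spontaneously immortalised, otherwise untreated fibroblasts, taken after 2 days in culture. Knockout cells (2 arrays) derived from a mouse whose genotype is given as tenascin-C knock-out. Knockdown cells (2 arrays) came from a wild-type mouse and carried a stably transfected tenascin-C short hairpin RNA, and no group with a control hairpin is analysed here. Wild-type cells (3 arrays) were expanded from a wild-type mouse. Strain and embryonic age are not given here, and the source of each clone is given as a mouse without a number. Whether clones share an animal is not stated for any group, the 2 knockout clones differed in sex-linked transcripts (given below), and p-values reflect clone-to-clone spread, which may be technical. The question put by the design is how tenascin-C-proficient and tenascin-C-deficient fibroblasts differ.

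Tetraspanins organise laminin-binding integrins, immunoglobulin-superfamily partners and membrane proteases, and several of them are abundant in exosomes. The TspanC8 subgroup carries the protease ADAM10 to the cell surface, where ADAM10 cleaves Notch receptors and cadherins. In fibroblasts the family is best known through Cd9, Cd63, Cd81, Cd82 and Cd151, whose proteins take part in adhesion, migration and vesicle release. Other members belong to particular tissues: leukocytes for Cd37, Cd53 and Tspan32, urothelium for the uroplakin genes Upk1a and Upk1b, and photoreceptors for Prph2 and Rom1.

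Values are log2 signals as deposited, so a difference of 1 is a doubling. Tnc itself had 8.05 and 8.51 in knockout cells and 7.34 and 6.52 in knockdown cells, against 10.89, 11.42 and 11.38 in wild-type cells. The deficient arrays were all lower, and Tnc fell in both groups (-2.95, adjusted p = 0.042 in knockout; -4.30, adjusted p = 0.0339 in knockdown, by limma). Where its probe set lies relative to the deletion is not known here. All 10 fibroblast markers, Col1a1, Pdgfra and Vim among them, lay above the olfactory level on every array. That level is the 95th percentile of 1015 olfactory receptor genes, which fibroblasts are not known to use, and it averaged 4.99 in knockout, 5.17 in knockdown and 5.10 in wild type. The fibroblast markers differed between groups as well: in knockout, 6 of 10 had arrays above the wild-type range (13.2% of all genes) and 1 (Pdgfra) below (15.3%). Their signals were summed on the linear scale, where the brightest markers weigh most. The log2 of that sum was 15.02 to 15.13 in knockout and 15.12 to 15.15 in knockdown, against 14.65 to 14.98 in wild type. The part of these marker differences in the results below was not tested. Knockout array 2 stood apart in sex-linked signal: Xist, which is transcribed from the inactive X chromosome, was at 8.80 there and between 3.51 and 3.77 elsewhere. Eif2s3y, a Y-linked gene, was at 3.77 on that array, at 5.46 on knockdown array 2 and between 7.51 and 8.78 elsewhere. As these are bulk cultures, fewer cells making a transcript and less of it per cell cannot be told apart.

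Of the 30 members, 24 lay above the olfactory level in all 3 groups, 19 of them by 1 log2 unit or more in at least 1 group. Another 5 (Cd37, Prph2, Rom1, Tspan10 and Upk1a) cleared it by less than 1 log2 unit in every group. Tspan1, Tspan8, Tspan32 and Upk1b were at or below it in all groups, and Tspan18 and Tspan33 crossed it in some. On these arrays 13 of the 30 members had exactly the same deposited value on 2 or more arrays, as did 55.7% of all genes. Where they fall within 1 group, repeated values lower the spread that a test sees.

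**Figure D1:**
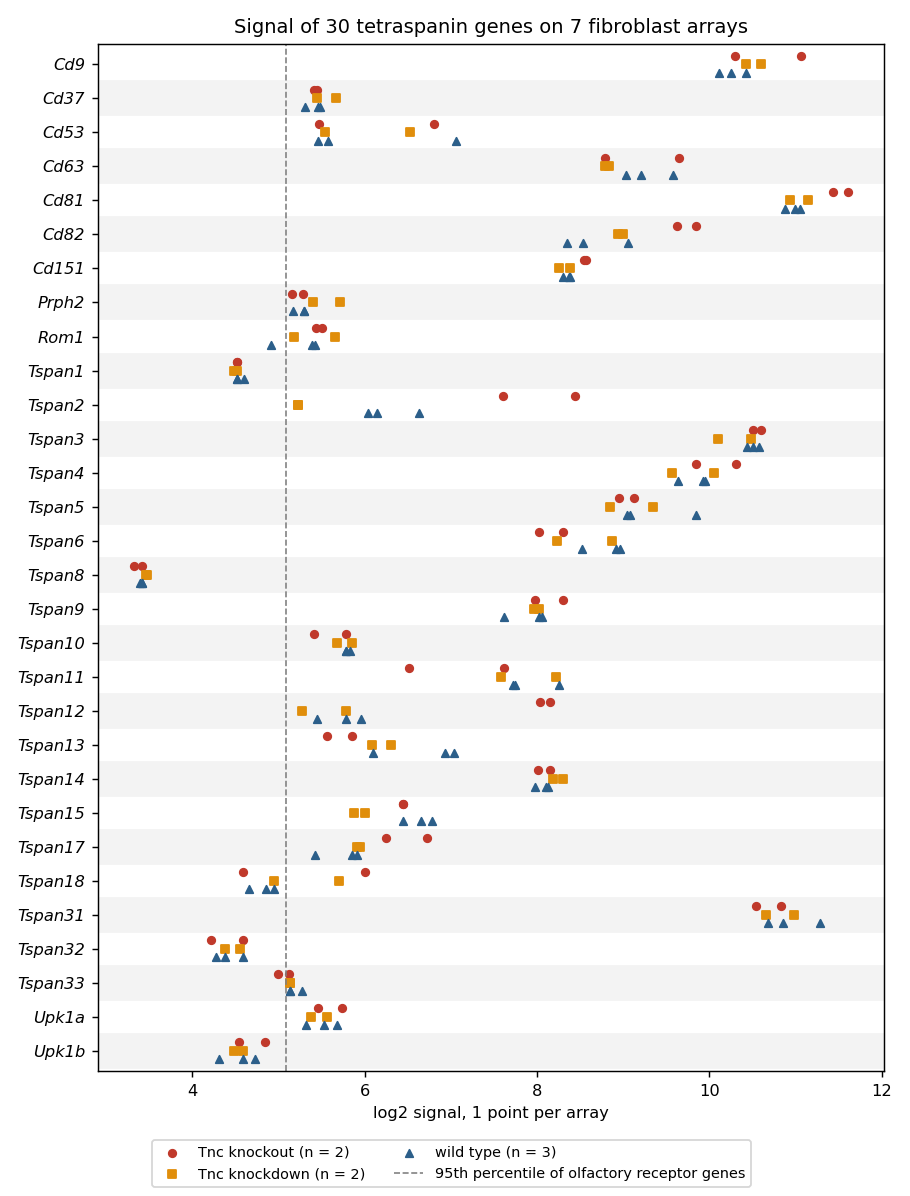
Log2 signal of all 30 tetraspanin genes (rows, by name) on each of the 7 arrays, 1 point per array; the dashed line marks the 95th percentile of 1015 olfactory receptor genes, averaged over groups. Tspan12 and Tspan2 show knockout arrays far to the right of the wild-type arrays, and Tspan2 knockdown arrays lie near the dashed line; signals of different genes are not comparable along the axis.

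The knockout comparison turned on Tspan12, the membrane partner of the receptor Fzd4 in norrin signalling of retinal vessels. Tspan12 (gene identifier 269831, probe set 10543306, chromosome 6) had log2 signals of 8.15 and 8.04 in knockout cells and 5.78 and 5.28 in knockdown cells, against 5.45, 5.79 and 5.96 in wild-type cells. Both knockout arrays lay above every other array, while the knockdown and wild-type arrays overlapped. Its means were 8.09 ± 0.0723 in knockout (SD, n = 2), 5.53 ± 0.353 in knockdown (SD, n = 2) and 5.73 ± 0.263 in wild type (SD, n = 3). The knockout mean was 2.36 ± 0.202 SE above wild type, a 5.14-fold rise (limma, adjusted p = 0.0246). Tspan12 was the single tetraspanin of the 29 tested to pass, where 0.167% of all genes did (0.119% higher and 0.0476% lower). An adjusted p is a Benjamini-Hochberg value over all 16801 genes, and a gene under 0.05 is said to have risen or fallen. The knockdown difference was -0.20 (95% interval -0.69 to 0.29, adjusted p = 0.699). Wild-type and knockdown means lay less than 1 log2 unit above the olfactory level, so background limits the fold.

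The Tspan12 call was lost with any single array left out. Its change stayed between 2.22 and 2.48 with any array left out, but the adjusted p then rose above the threshold: 0.122 without knockout array 1, 0.0691 without knockout array 2, 0.0731 without knockdown array 1, 0.0732 without knockdown array 2, and 0.065, 0.111 and 0.0833 without wild-type arrays 1, 2 and 3. A fit of knockout and wild type alone gave 0.0734. Knockdown arrays enter only the shared spread, so leaving out either nearly repeats that fit and says nothing about their values. The replicate block, which takes the clone number as a covariate, gave 0.207. Number 3 occurs only in wild type, so the block drops wild-type array 3, and the change was 2.48 both ways.

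Around Tspan12 on chromosome 6, 8 of the 10 nearest protein-coding genes were tested. Of these, 0 passed limma's adjusted test in knockout, where 0.167% of all genes passed, so so few genes can say little. The adjacent genes Kcnd2, of a potassium channel, and Ing3, of a chromatin complex, had knockout differences of -0.00 and -0.01. Cped1, the second gene on the Ing3 side, stood at 0.87 (adjusted p = 0.376) with knockout arrays above wild type, as they were for Fam3c at 0.26 (adjusted p = 0.432). Over all genes, 13.2% had knockout arrays above wild type. The largest difference among the 8 was that of Ptprz1, the fifth gene on the Ing3 side, at 1.83 in knockout (adjusted p = 0.509), where its arrays overlapped wild type. Its knockdown difference was -0.85 (adjusted p = 0.755). Wnt16, Cttnbp2 and Lsm8 lay between -0.13 and 0.05 in knockout. These genes were chosen for their position.

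Tspan2, a tetraspanin of oligodendrocytes and smooth muscle, separated knockout from knockdown. Tspan2 (gene identifier 70747, probe set 10494821, chromosome 3) stood at 8.44 and 7.61 in knockout and at 5.23 on both knockdown arrays, against 6.04, 6.63 and 6.15 in wild type. The 3 groups did not overlap, with knockout highest and knockdown lowest. Its differences from wild type did not pass: 1.75 ± 0.281 SE in knockout (3.36-fold higher, adjusted p = 0.0937) and -1.04 ± 0.281 SE in knockdown (2.06-fold lower, adjusted p = 0.21). Both knockdown arrays held the identical deposited value, 0.06 above the knockdown olfactory level of 5.17, so background may limit the fold and the knockdown spread is recorded as 0.

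Knockout and knockdown were compared directly to test whether their effects differ. Tspan2 was 6.93-fold higher in knockout than in knockdown (2.79 ± 0.308 SE, adjusted p = 0.0436) and Tspan12 5.91-fold higher (2.56 ± 0.221 SE, adjusted p = 0.0221). These 2 of 29 members passed, all higher in knockout, where 0.375% of all genes passed in either direction and 0.274% higher. With an array left out, the Tspan2 difference ran from 2.38 to 3.21 and passed with knockout array 2 left out (0.0329). Its adjusted p was 0.0912 without knockout array 1, 0.116 and 0.188 without knockdown arrays 1 and 2, and 0.0926, 0.12 and 0.111 without wild-type arrays 1, 2 and 3. For Tspan12 the difference ran from 2.31 to 2.81. It passed without wild-type array 1 (0.0484), and the adjusted p was 0.0957 and 0.0548 without knockout arrays 1 and 2, 0.0694 and 0.151 without knockdown arrays 1 and 2, and 0.108 and 0.0816 without wild-type arrays 2 and 3. Under the replicate block both calls ended (0.172 for Tspan12 and 0.186 for Tspan2), and a fit of these 2 groups alone gave 0.307 for both. Including these 2 genes, 12 of 29 members (41.4%) had knockout arrays outside the knockdown range, 8 higher and 4 lower, against 45% of all genes (17.8% higher and 27.2% lower). Counting by an unadjusted p under 0.05, 7 were higher, against 9.05% of genes, and 1 lower (Prph2), against 8.87%.

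**Figure D2:**
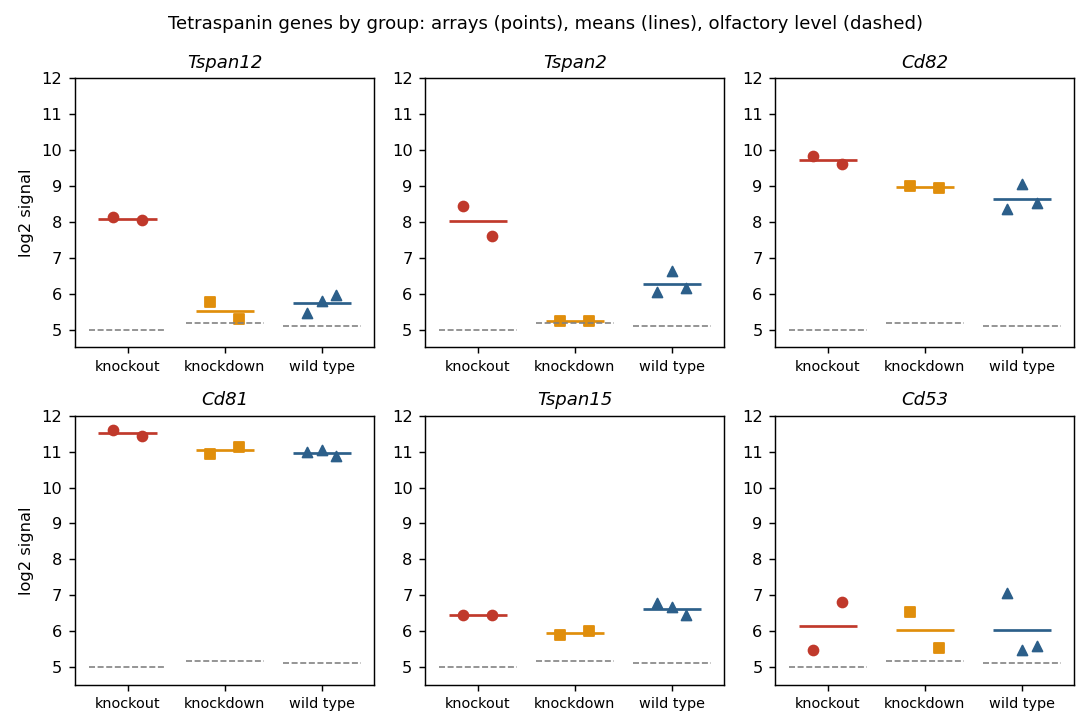
Log2 signal of 6 tetraspanin genes by group (knockout, knockdown, wild type), with arrays as points, group means as solid lines and the olfactory level of each group dashed. Tspan12 is high in knockout, Tspan2 is ordered knockout, wild type, knockdown, and Cd53 has 1 high array in each group.

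Because these 2 genes carried the calls, the 250 bases before their annotated starts are shown with those of Cd81, whose signal was also higher in knockout but which has a GC-richer window. Sequences are from RefSeq (GRCm38.p6), read 5′ to 3′ on the gene's strand, with capitals marking matches to 5 short motifs on either strand. The TATA box was searched as the letters TATAAA. The CCAAT box is spelled by its name. The GC box, bound by Sp-family factors, was searched as GGGCGG. For the AP-1 site, bound by Fos and Jun proteins, the pattern was TGANTCA with any base at N. The E-box, bound by helix-loop-helix factors, was searched as CACGTG. Windows were matched for 28 of the 30 members by gene identifier. Tspan12 lies at chr6:21852534-21852783 on the minus strand, Tspan2 at chr3:102734520-102734769 and Cd81 at chr7:143052500-143052749, both on the plus strand.
Tspan12: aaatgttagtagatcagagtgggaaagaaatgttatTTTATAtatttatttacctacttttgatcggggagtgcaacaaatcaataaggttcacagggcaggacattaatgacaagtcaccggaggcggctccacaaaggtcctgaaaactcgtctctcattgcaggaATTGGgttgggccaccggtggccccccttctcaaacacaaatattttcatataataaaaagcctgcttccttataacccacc
Tspan2: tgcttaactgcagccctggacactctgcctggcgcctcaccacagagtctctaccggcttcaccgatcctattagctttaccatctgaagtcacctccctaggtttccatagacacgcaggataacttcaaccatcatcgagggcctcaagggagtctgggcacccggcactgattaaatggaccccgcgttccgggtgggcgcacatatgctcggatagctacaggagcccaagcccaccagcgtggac
Cd81: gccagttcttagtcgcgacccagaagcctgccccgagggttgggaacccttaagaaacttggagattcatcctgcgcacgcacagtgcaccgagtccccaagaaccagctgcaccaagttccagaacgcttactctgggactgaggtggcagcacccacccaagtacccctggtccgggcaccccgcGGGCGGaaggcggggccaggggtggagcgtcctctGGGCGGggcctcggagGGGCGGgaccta
Tspan2 has a second annotated window, at chr3:102734965-102735214 with 64.4% GC and 17 CpG dinucleotides, which is not printed; the upstream one is shown. The Tspan12 window was the AT-richest of the 3 shown, at 42% GC with 5 CpG dinucleotides, against 57.2% with 12 in Tspan2 and 65.6% with 16 in Cd81. Over all windows the median was 6 CpG dinucleotides, and 44.4% of windows had fewer than Tspan12. The window of another tetraspanin, Tspan6, was lower in GC, at 36%. The Tspan12 window holds a TATA box match whose first base lies 214 bases before the start and a CCAAT box match at 82 bases, each on the opposite strand. Neither Tspan2 window holds any of the 5 letter patterns, and the Cd81 window holds 3 GC boxes. Over the 38 windows of the family, the TATA box occurred in 1 (2.63%, against 12.4% of all 32851 windows) and the GC box in 16 (42.1%, against 32.7%). The CCAAT box occurred in 12 (31.6%, against 33.8%), the E-box in 2 (5.26%, against 6.02%) and the AP-1 site in 1 (2.63%, against 6.75%). A match describes letters only.

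Among the broadly used surface tetraspanins, 3 had knockout arrays above all wild-type arrays without passing the test. Cd82, known as a suppressor of metastasis, stood at 9.84 and 9.62 in knockout and 9.0 and 8.94 in knockdown, against 8.35, 9.06 and 8.53 in wild type. Both knockout arrays lay above the other 5, and the knockdown arrays lay within the wild-type range. Its knockout difference was 1.08 ± 0.211 SE (2.12-fold higher, adjusted p = 0.131).

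Cd81, a partner of Cd9 and of integrins, stood at 11.61 and 11.43 in knockout and 10.94 and 11.14 in knockdown, against 10.99, 11.05 and 10.88 in wild type. The knockout arrays again formed the upper end, 0.55 ± 0.103 SE above wild type (1.46-fold, adjusted p = 0.127). Cd151, which binds laminin-receptor integrins, stood at 8.57 and 8.55 in knockout and 8.25 and 8.38 in knockdown, against 8.30, 8.37 and 8.38 in wild type. Its knockout difference of 0.21 ± 0.0748 SE (adjusted p = 0.339) was small but larger than the range of the wild-type arrays.

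Cd9 and Cd63 overlapped between knockout and wild type. Cd9 stood at 11.06 and 10.30 in knockout and 10.60 and 10.43 in knockdown, against 10.25, 10.43 and 10.11 in wild type. Knockout array 1 was the highest of the 7, and the knockout difference was 0.41 ± 0.23 SE (adjusted p = 0.505). Cd63, a protein of late endosomes and exosomes, stood at 8.79 and 9.65 in knockout and 8.79 and 8.83 in knockdown, against 9.58, 9.21 and 9.03 in wild type. The knockdown arrays lay below every wild-type array, at -0.47 ± 0.275 SE (1.38-fold lower, adjusted p = 0.504), and the 2 knockout arrays lay on either side of the wild-type range.

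The TspanC8 genes, whose proteins escort ADAM10, gave 0 calls in limma among 6 tested in either comparison with wild type. Over all genes 0.167% were called in knockout and 0.0179% in knockdown. An unadjusted p under 0.05 was found for 1 of the 6 (Tspan17) in knockout (12.8% of all genes) and 1 (Tspan15) in knockdown (14.1%). The median log2 change of the 6 was -0.15 in knockout and -0.04 in knockdown, against -0.03 and 0.03 over all genes. Tspan17 stood at 6.72 and 6.25 in knockout and 5.95 and 5.91 in knockdown, against 5.43, 5.85 and 5.91 in wild type. Its knockout arrays were the highest of the 7 (0.75 ± 0.197 SE, 1.69-fold, adjusted p = 0.213).

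Tspan15, which directs ADAM10 toward N-cadherin, differed most in the knockdown group. It stood at 6.44 on both knockout arrays and at 5.88 and 6.00 in knockdown, against 6.78, 6.66 and 6.44 in wild type. The knockdown arrays were the lowest 2 (-0.69 ± 0.114 SE, 1.61-fold lower, adjusted p = 0.129), and this was the smallest unadjusted p of any tetraspanin in knockdown (9.23e-04). Tspan14 stood at 8.15 and 8.01 in knockout and 8.19 and 8.30 in knockdown, against 7.98, 8.13 and 8.10 in wild type. Its knockdown arrays lay just above wild type (0.17 ± 0.0895 SE, adjusted p = 0.451).

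Tspan5 stood at 9.13 and 8.95 in knockout and 9.34 and 8.85 in knockdown, against 9.85, 9.08 and 9.04 in wild type, and all groups overlapped. Tspan33 lay between 5.0 and 5.27 on all arrays, next to the olfactory level. Its knockout arrays, at 5.12 and 5.0, were below the wild-type arrays at 5.13, 5.13 and 5.27 by -0.12 (adjusted p = 0.567). Tspan10, a TspanC8 gene of pigmented cells, ran from 5.41 to 5.86.

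Several less studied members were lower in knockout, with arrays outside the wild-type range but none past the test. Tspan13 stood at 5.85 and 5.57 in knockout and 6.09 and 6.31 in knockdown, against 7.04, 6.93 and 6.10 in wild type. The difference was -0.98 ± 0.291 SE (1.97-fold lower, adjusted p = 0.259), and wild-type array 3 lay near the knockdown arrays. Tspan11 stood at 6.51 and 7.62 in knockout and 8.22 and 7.58 in knockdown, against 8.25, 7.72 and 7.75 in wild type. Knockout array 1 made most of its difference of -0.84 ± 0.375 SE (adjusted p = 0.427), which was -0.29 without that array and -1.40 without knockout array 2.

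Tspan6, the X-linked member, stood at 8.02 and 8.30 in knockout and 8.87 and 8.23 in knockdown, against 8.92, 8.96 and 8.52 in wild type. The knockout difference was -0.64 ± 0.232 SE (1.56-fold lower, adjusted p = 0.344). Xist was at 3.77 on knockout array 1 and 8.80 on knockout array 2, and its part in the Tspan6 values was not tested. Knockdown array 2 lay within the knockout range.

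The remaining well detected members overlapped between knockout and wild type. Tspan3 stood at 10.60 and 10.50 in knockout and 10.48 and 10.10 in knockdown, against 10.58, 10.50 and 10.44 in wild type, a knockout difference of 0.04 (95% interval -0.27 to 0.35). Tspan31, first described from its amplification in human sarcomas, stood at 10.54 and 10.83 in knockout and 10.66 and 10.98 in knockdown, against 11.28, 10.85 and 10.68 in wild type. Tspan31 ranged more widely within wild type than its group means differed, and its knockout difference was -0.25 (95% interval -0.76 to 0.25).

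Tspan4, a protein of migrasomes, the vesicles that form on retraction fibres of migrating cells, stood at 9.84 and 10.31 in knockout and 9.57 and 10.05 in knockdown, against 9.63, 9.95 and 9.92 in wild type. All groups overlapped, and the knockout interval ran from -0.27 to 0.75. Tspan9, a platelet tetraspanin, ran from 7.62 to 8.30 over the 7 arrays, with a knockout difference of 0.24 (adjusted p = 0.575).

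Leukocyte and tissue-restricted members were low, with Cd53 as the exception. Cd53, a tetraspanin of white blood cells, stood at 5.47 and 6.81 in knockout and 6.53 and 5.54 in knockdown, against 7.06, 5.46 and 5.58 in wild type. Each group had 1 array between 6.53 and 7.06 and the others between 5.46 and 5.58, so the groups overlapped throughout (0.10 ± 0.642 SE in knockout). Its within-group SD of 0.862 exceeded that of 99.1% of all tested genes.

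Of 9 macrophage and blood markers, 7 were matched. The log2 of their summed signal was 7.56 to 7.81 in knockout, 7.65 to 7.72 in knockdown and 7.58 to 7.81 in wild type. Cd68, at 5.59 to 5.88, and Cd3e, at 5.10 to 5.76, were above the olfactory level on all 7 arrays, Cd14 (4.68 to 5.95) on 2 and Csf1r (4.44 to 5.31) on 1. Ptprc, which marks white blood cells, lay between 4.0 and 4.23, Itgam between 3.91 and 4.11 and Cd79a between 2.94 and 3.37, all below that level on every array. On the arrays with high Cd53, namely knockout array 2, knockdown array 1 and wild-type array 1, Csf1r was at 4.78, 4.80 and 5.31, Cd14 at 5.95, 5.17 and 4.68, and Ptprc at 4.01, 4.23 and 4.16. Cd37 ran from 5.31 to 5.67 and Tspan32 from 4.22 to 4.59.

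The photoreceptor gene Prph2 stood at 5.29 and 5.16 in knockout and 5.72 and 5.4 in knockdown, against 5.30, 5.30 and 5.17 in wild type. Its knockdown arrays were the highest (0.31 ± 0.118 SE, adjusted p = 0.332), and all 5 matched photoreceptor markers lay below the olfactory level on every array. Its retinal partner Rom1 stood at 5.51 and 5.44 in knockout and 5.66 and 5.18 in knockdown, against 4.91, 5.42 and 5.39 in wild type. The Rom1 knockout arrays were above wild type by 0.23 ± 0.206 SE (adjusted p = 0.651), with wild-type array 1 low. Upk1a ran from 5.32 to 5.74 and Upk1b from 4.31 to 4.84. Among 4 urothelial markers, the uroplakin genes Upk2, Upk3a and Upk3b were above the olfactory level on all arrays, Upk3b narrowly at 5.19 to 5.48. The fourth, Krt20, lay between 3.70 and 4.12, below that level on every array. The log2 of the summed signal of the 4 was 7.30 to 7.32 in knockout and 7.59 to 7.63 in knockdown. In wild type it was 7.30 to 7.49. What part other cell types have in these values was not tested. Tspan1, an epithelial member, ran from 4.48 to 4.6, and Tspan8, of gut epithelium, from 3.32 to 3.48. Tspan18, of endothelium, stood at 6.01 and 4.59 in knockout and 4.95 and 5.70 in knockdown, against 4.66 to 4.95 in wild type, with the arrays of both deficient groups far apart. Among 6 epithelial markers, Krt8 and Krt14 were above the olfactory level on all 7 arrays and Krt18 on 6. Among 6 endothelial markers, Tek was above it on 5 arrays and Kdr on 1. The other markers of these lists were below it on every array.

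The family's shares of genes with arrays outside the wild-type range are set here beside those of all genes. In knockout 11 of 29 tested members (37.9%) had arrays outside the wild-type range, 7 higher and 4 lower, against 28.5% of all genes (13.2% higher and 15.3% lower). With an unadjusted p under 0.05 there were 8 members (27.6%, against 12.8% of genes), 6 higher (background 7.33%) and 2 lower (background 5.5%). Members with a change of more than 1 log2 unit numbered 3 (10.3%, against 2.29% of all genes): Tspan12, Tspan2 and Cd82. The median log2 change was 0.04 over members and -0.03 over all genes, with 17 members higher (58.6%, against 42.8% of all genes) and 12 lower. With each array centred on its median the split was 20 and 9, and without knockout array 1 it was 12 higher and 17 lower, so its direction rests on that array. Among genes above the array median on at least 2 arrays, the knockout share outside the wild-type range was 41.7% of 24 members. Over all such genes it was 33%. In knockdown these shares were 16.7% and 35.5%. All these shares are descriptions, with no test of the family as a whole.

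In knockdown, limma called 0 of 29 members, where 0.0179% of all genes passed, and 3 members (10.3%) had an unadjusted p under 0.05 against 14.1% of genes, 1 higher (background 7.12%) and 2 lower (background 6.99%). Arrays lay outside the wild-type range for 5 members (17.2%, against 30.5%): Prph2 and Tspan14 higher (background 17.5%), and Cd63, Tspan15 and Tspan2 lower (background 12.9%). The member median was -0.02, against 0.03 over all genes.

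The mean of both deficient groups was also set against wild type, the comparison named in the study's title. It gave 0 calls in limma among the members (0.0298% of all genes passed, 0.0179% higher and 0.0119% lower) and 6 members at an unadjusted p under 0.05 (20.7%, against 12.3% of genes), namely Cd81, Cd82, Tspan12 and Tspan17 higher (background 6.48%) and Tspan13 and Tspan15 lower (background 5.78%). In this comparison 0 of 29 members had all 4 deficient arrays on the same side of wild type, against 7.7% of all genes (4.15% higher and 3.55% lower). Cd82 differed by 0.70 ± 0.176 SE (adjusted p = 0.256) and Tspan13 by -0.73 ± 0.244 SE (adjusted p = 0.334). All these comparisons share the wild-type arrays.

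**Figure D3:**
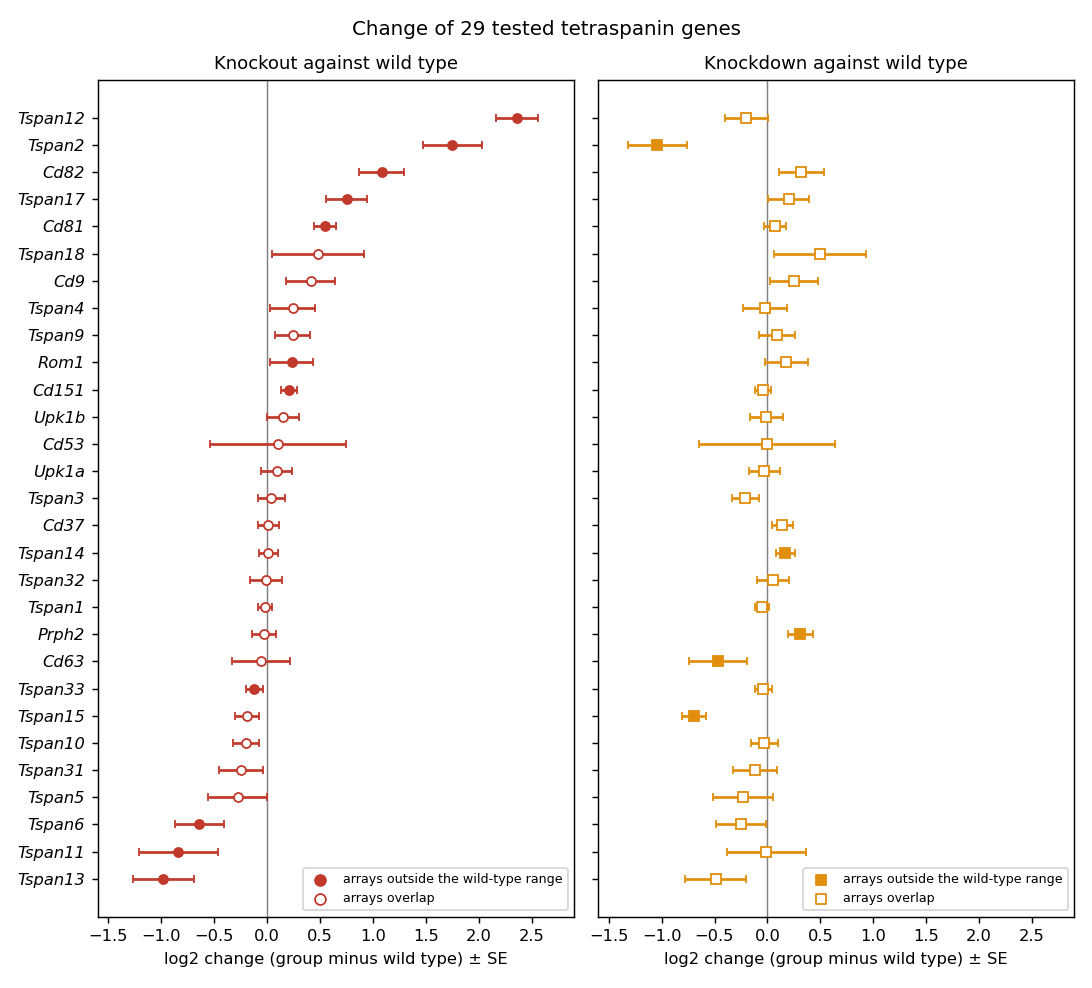
Log2 change ± SE of the 29 tested tetraspanins in knockout (left) and knockdown (right) against wild type, ordered by the knockout change; filled symbols mark genes whose arrays lie outside the wild-type range. Tspan12 reaches 2.36 in knockout and Tspan2 lies at 1.75 in knockout and -1.04 in knockdown.

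Members differed widely in how much clones of the same group varied. The pooled within-group SD was above the median of all tested genes (0.14) for 21 of 29 members, and above their 90th percentile (0.303) for 7: Cd53, Tspan18, Tspan11, Tspan13, Tspan5, Tspan2 and Cd63. Cd151, Tspan14 and Cd81 varied least among the well detected ones, at 0.0555, 0.0863 and 0.111. The sizes of change that could be resolved therefore differed between members, as the intervals above show.

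Some family members are chromosomal neighbours. Cd81 lies next to Tspan32 on chromosome 7, Cd82 next to Tspan18 on chromosome 2 and Tspan11 next to Tspan9 on chromosome 6, each with 0 protein-coding genes between in RefSeq's GRCm38.p6 annotation. Cd151 and Tspan4 have 1 gene between them on chromosome 7. The knockout differences were 0.55 for Cd81 beside -0.01 for Tspan32, and -0.84 for Tspan11 beside 0.24 for Tspan9. They were 1.08 for Cd82 beside 0.48 for Tspan18, and 0.21 for Cd151 beside 0.24 for Tspan4.

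Partner genes were grouped in lists. Beside the calls given for each list stand the shares called over all genes, 0.167% in knockout and 0.0179% in knockdown. The surface partner list held integrins, immunoglobulin-superfamily partners, growth factor receptors and other genes, among them Mmp14, Hbegf, Cd44, Pi4k2a and Zdhhc2. Of its 20 genes, limma called 0 in knockout, where 4 had an unadjusted p under 0.05, all higher. The list median was 0.21 in knockout and -0.03 in knockdown, and 10 members were above and 2 below the wild-type range in knockout. Over all genes the knockout shares were 13.2% above and 15.3% below the range, and 7.33% higher at an unadjusted p under 0.05. Itga5, the fibronectin receptor subunit, stood at 10.35 and 10.41 in knockout and 8.94 and 8.90 in knockdown, against 8.30, 9.08 and 8.99 in wild type (knockout difference 1.59 ± 0.234 SE, 3.01-fold, adjusted p = 0.0784). Itgb5, a subunit of vitronectin receptors, stood at 10.85 and 10.84 in knockout and 10.11 and 9.81 in knockdown, against 9.47, 9.73 and 9.98 in wild type (knockout difference 1.12 ± 0.166 SE, adjusted p = 0.0798). Knockout arrays of both genes lay above all others.

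In knockdown the surface list gave 0 calls in limma, with 3 genes higher and 2 lower by the unadjusted p (7.12% and 6.99% of all genes). Met, the hepatocyte growth factor receptor, stood at 9.16 and 9.0 in knockout and 8.54 and 8.54 in knockdown, against 9.65, 9.17 and 9.46 in wild type, a knockdown difference of -0.89 ± 0.148 SE (1.85-fold lower, adjusted p = 0.129). Hbegf, a growth factor precursor that binds Cd9, stood at 9.03 and 9.46 in knockout and 8.94 and 8.61 in knockdown, against 9.49, 9.25 and 9.37 in wild type. Its knockdown difference was -0.60 ± 0.167 SE (adjusted p = 0.22).

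Of 19 ADAM and Notch pathway genes 18 were tested, with 0 calls in limma in knockout and in knockdown and list medians of 0.09 in both. By the unadjusted p, 1 was higher and 1 lower in knockout (12.8% of all genes in either direction), and 2 were higher and 2 lower in knockdown (14.1% of all genes). Cdh2 (N-cadherin), the Tspan15-linked ADAM10 substrate, stood at 9.44 and 9.38 in knockout and 9.43 and 9.55 in knockdown, against 9.91, 9.90 and 10.21 in wild type. All 4 deficient arrays lay below wild type, by -0.60 ± 0.118 SE in knockout (adjusted p = 0.132) and -0.52 ± 0.118 SE in knockdown (adjusted p = 0.183). In this list 1 gene had all 4 below and 1 had all 4 above, against 3.55% and 4.15% of all genes. Adam10 itself, chosen after its values were seen, lay 0.20 above wild type in knockout (adjusted p = 0.67), and its knockdown difference was -0.10 (adjusted p = 0.848). Notch3 stood at 0.24 in knockout (adjusted p = 0.328), and Aph1a, of the gamma-secretase complex, at 0.23 in knockdown (adjusted p = 0.236).

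All 19 exosome formation genes were tested, and limma called 0 in either group, with an unadjusted p under 0.05 for 4 in knockout, all higher (7.33% of all genes higher and 5.5% lower), and for 2 higher and 2 lower in knockdown (7.12% and 6.99% of all genes). List medians were 0.14 in knockout and 0.12 in knockdown. Sdc3, a heparan sulphate proteoglycan, stood at 9.56 and 8.94 in knockout and 7.81 and 7.43 in knockdown, against 6.57, 7.95 and 7.95 in wild type (knockout difference 1.76 ± 0.464 SE, adjusted p = 0.215). Its wild-type array 1 was far below the other wild-type arrays. Sdc2 stood at 0.87 in knockout (adjusted p = 0.182). Sdcbp, the syntenin gene that links syndecans and Cd63 to vesicle budding, stood at 10.74 and 10.42 in knockout and 10.60 and 10.32 in knockdown, against 10.95, 10.98 and 10.79 in wild type. All 4 deficient arrays were below wild type, with a knockdown difference of -0.45 ± 0.138 SE (adjusted p = 0.249). In this list 2 genes had all 4 below and 1 had all 4 above, against 3.55% and 4.15% of all genes. Flot1, of lipid rafts, stood at 0.35 in knockdown (adjusted p = 0.287).

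The norrin pathway list, which holds the receptors Tspan12 works with, gave 0 of 7 calls in limma in each group, with an unadjusted p under 0.05 for 0 genes in knockout (12.8% of all genes) and 1 in knockdown (14.1%). Its median was 0.03 in knockout and 0.23 in knockdown. Fzd4, chosen after its values were seen, differed by 0.57 ± 0.33 SE in knockout (adjusted p = 0.518), and the ligand gene Ndp, also chosen outside the rule, by 0.03 (adjusted p = 0.917). The co-receptor gene Lrp5 stood at 8.32 and 8.10 in knockout and 8.43 and 8.04 in knockdown, against 7.18, 7.93 and 7.79 in wild type. All 4 deficient arrays were above wild type, by 0.57 ± 0.249 SE in knockout (adjusted p = 0.411) and 0.60 ± 0.249 SE in knockdown (adjusted p = 0.358). In this list 1 gene had all 4 above and 0 had all 4 below, against 4.15% and 3.55% of all genes. Axin2, a target of beta-catenin signalling, stood at -0.24 in knockout (adjusted p = 0.47), and Sox17 at 0.30 in knockdown (adjusted p = 0.256), with all its arrays below the olfactory level.

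**Figure D4:**
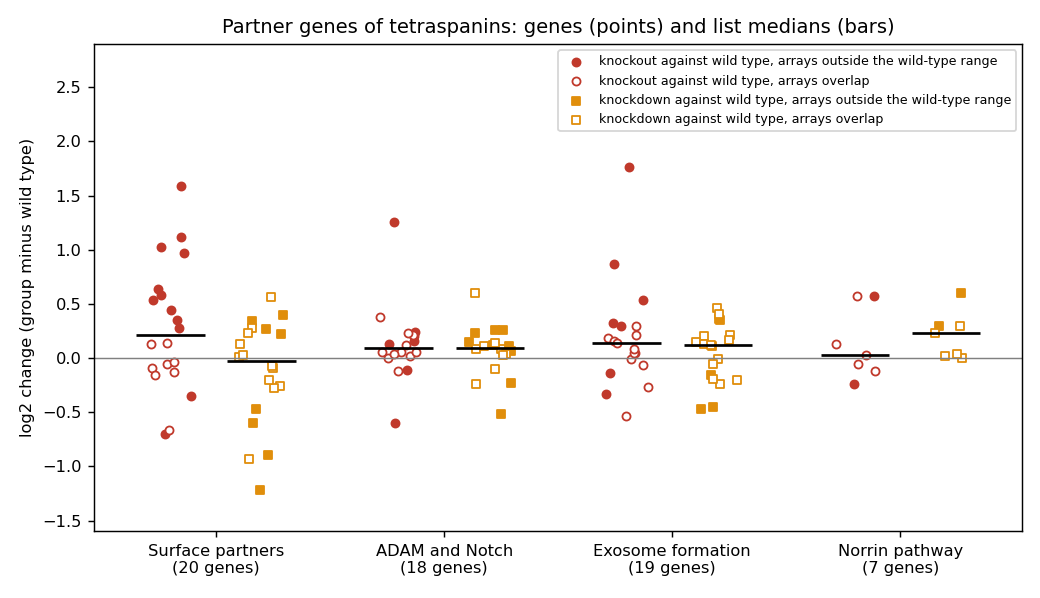
Log2 change of tetraspanin partner genes in knockout (circles) and knockdown (squares) against wild type for 4 lists, with list medians as bars; filled symbols mark genes whose arrays lie outside the wild-type range. The surface partner median is 0.21 in knockout and -0.03 in knockdown, and no gene shown passed the test over all genes.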

How the data were processed

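RNA of 7 fibroblast clones was labelled with Affymetrix whole-transcript kits, per the labels' protocols. The authors deposited log2 signals, 1 column for each array, running from 1.81 to 13.7; the scale was inferred from this range. Per the submitters' processing notes, affy and R 2.8.0 were used. How the probes were summarised, background-corrected and normalized is not given in the sources used. Of 34760 probe sets, 21640 were listed with a single gene symbol, covering 19937 genes. Where a gene had several probe sets the highest mean was used, and each tetraspanin had 1. All 30 members matched the RefSeq table (GRCm38.p6), which served for names and gene order.

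Genes above the array's 25th percentile on at least 2 arrays were tested. Group means were fitted jointly over the 7 arrays by lmFit and eBayes of limma (version 3.58.1, R 4.3.3), and tests were two-sided. The fit left 4 residual degrees of freedom per gene, to which eBayes added 2.06. A run of the procedure on simulated data used independent noise, without repeated values or effects shared by an array. It therefore does not show how the procedure behaves on these data. Intervals are 95% and unadjusted. For arrays the number of replicates limits the precision.

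The members and lists were chosen with earlier results of these data known. Every tetraspanin is accounted for, with array values for those called, those not overlapping with wild type, and those with a mean log2 signal of at least 9. List genes named are the called ones or else the 2 of smallest unadjusted p among those not overlapping; Adam10, Fzd4 and Ndp were added outside this rule.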

Additional observations from a re-analysis of the deposited data

Results flagged for a closer look

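Knockout and knockdown differed from each other in 2 tetraspanins by the direct test of the difference. Tspan2 differed by 2.79 on the log2 scale (knockout minus knockdown, adjusted p = 0.0436 by limma), with knockout arrays above and knockdown arrays below all wild-type arrays. Tspan12 differed by 2.56 (adjusted p = 0.0221), with knockout arrays above all others and knockdown arrays among the wild-type ones. The share of all tested genes that passed this test was 0.375%. Groups of 2 or 3 arrays are too small for a check of single outlying arrays.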

How the results depend on the processing

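The limits come first from the number of arrays. The Tspan12 change in knockout kept its direction in 17 of 17 alternatives (2.22 to 2.48, adjusted p 0.0104 to 0.207) and its call in 7 of them. The count of tetraspanins called in knockout was 1. It stayed 1 without a filter, with a stricter filter, quantile normalization, centring, an intensity trend, array weights and another probe set choice. It was 0 with the replicate block, with only the groups compared, without any single array (0 to 0) and without both deficient arrays numbered 2. Leaving out arrays also removes residual degrees of freedom. In the direct comparison of knockout with knockdown the count was 2. It was 1 without a filter and with array weights (Tspan12 in both), 0 with only the groups compared, with the replicate block and without both arrays numbered 2, and 0 to 1 with single arrays left out. In knockdown and in the mean of both deficient groups 0 tetraspanins were called under every alternative run.

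Medians over the tested members shifted in some settings. The knockdown median of -0.02 was -0.00 with quantile normalization, -0.05 with centring, -0.03 to 0.03 without single arrays and 0.01 without both arrays numbered 2. The median for both deficient groups was 0.02 to 0.10 without single arrays. The knockout minus knockdown median of 0.10 was 0.18 with centring and 0.00 to 0.12 without single arrays. The Tspan33 difference between knockout and knockdown, -0.08 and not called, was 0.01 with quantile normalization and 0.00 with centring; the cause was not tested.

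Over all genes, 28 were called in knockout (1 to 79 over the alternatives), 3 in knockdown (0 to 3), 5 for both deficient groups (0 to 10) and 63 between knockout and knockdown (0 to 137). Centring gave 61 higher and 10 lower in knockout, against 20 and 8, and 111 and 26 between knockout and knockdown, against 46 and 17. Quantile normalization gave 65 and 35 there. The clone numbers are not stated to mark a shared batch and were not taken as pairs. Deviations of same-numbered arrays from their group means correlated at -0.07 to 0.20. In the groups of 2 arrays these deviations mirror each other, so they can say little about pairing. Beyond the calls it ended, given above, the block changed no other tetraspanin call. As number 3 occurs only in wild type, the block also takes wild-type array 3 out of the fit.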
